A study of Cervus nippon with 40 samples.

Results

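The brain of the male Sika Deer (Cervus nippon, Shuangyang breed) was represented by 4 small RNA libraries, which were set against 36 libraries from 9 further organs. The 4 brain libraries were 4 of 40 in all and were chosen by their organ label. Each organ had 1 library per stage, and the 4 stages were juvenile at 1 year, adolescence at 3 years, adult at 5 years and aged at 10 years. The other organs were adrenal, antler, heart, kidney, liver, lung, skeletal muscle, spleen and testes. No treatment is given for the deer, and the study's methods say that each library pooled equal RNA of 3 deer of a stage, so all organ libraries of a stage came from the same animals. The part of the brain that was taken is not given in the sources used here. With 1 pool per stage the spread between deer was not measured, and a stage of brain is 1 library, so a difference in age cannot be told apart from a difference between pools of deer or between libraries.

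MiRNAs are short RNAs that guide the Argonaute proteins to messenger RNAs, which are then degraded or translated less. Some are made nearly in one cell type alone. MiR-124 is the textbook neuronal miRNA, miR-128 is another miRNA of neurons, miR-219 and miR-338 belong to oligodendrocytes, and let-7 family members accumulate as cells differentiate. MiRNAs of the imprinted DLK1-DIO3 cluster are also well known from brain. The names used here are the bovine miRBase names of the deposited tables without their prefix.

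The brain libraries held 1159823, 368429, 798863 and 922258 miRNA reads in the order of the stages, and the other libraries held 41866 to 7759033. Values are RPM, that is, reads of a miRNA per 1000000 miRNA reads of the library, and 1 read stood for 0.862 to 2.71 RPM in brain. The tables hold only miRNAs with reads, and 0 reads in the adolescence brain library, the shallowest of the 4, allows up to 8.14 RPM. Known miRNAs numbered 178, 124, 171 and 173 in the brain libraries, and 216 of the 305 names used were found in at least 1 of them.

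The labelled organ was checked with the 2 brain markers, and both were as the label says. MiR-124a was at 57640, 2446, 31967 and 37110 RPM in the juvenile, adolescence, adult and aged brain. It was absent from the antler libraries, at 8.36 to 72.5 RPM in adrenal, at 37.3 to 358 RPM in testes and at 11.4 RPM or less in the other organs. All brain libraries therefore lay above all others, and 127515 of its 127766 reads came from brain. The adolescence brain was the lowest of the 4. MiR-128 was scarce, with 5, 4, 5 and 13 reads in the brain libraries and 3 reads elsewhere, 1 in heart and 2 in skeletal muscle. Its difference between brain and the other organs was 3.16 on the log2(RPM + 1) scale, with p = 0.0001 in an exact permutation test of the organ labels within stages (two-sided), the smallest p that the 10000 arrangements allow. It had too few reads for the model used for the other miRNAs. The permutation test took 0 reads as 0 RPM. In the adolescence, adult and aged testes 1 read stood for 14.9, 10.3 and 23.9 RPM, above the brain value of the stage.

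A small number of miRNAs made up most of the brain profile, and the leading one was not the same at every stage. Let-7b had 85558, 416330, 296968 and 352964 RPM. It was first in the 3 older brain libraries and came behind miR-26a in the juvenile library. MiR-26a, a miRNA of many tissues that targets EZH2, had 289143, 4516, 41082 and 26880 RPM. It led the juvenile library and was low in the adolescence library. Several of these values are listed more than once. MiR-3596 had the same reads as let-7b in all 40 libraries and miR-26c nearly the same as miR-26a, so the reads of such names cannot be told apart, and the second names of 8 such pairs held 34.4% to 42.2% of the brain reads. With each pair counted once, let-7b made up 13.7% (95% Wilson interval 13.7% to 13.8%) of the juvenile, 72.0% (71.8% to 72.2%) of the adolescence, 45.2% (45.1% to 45.4%) of the adult and 57.4% (57.3% to 57.5%) of the aged brain reads. On the same base miR-26a made up 46.5% (46.3% to 46.6%), 0.781% (0.744% to 0.819%), 6.26% (6.19% to 6.32%) and 4.37% (4.32% to 4.43%). Intervals here and below cover the counting of reads only.

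The next places by mean RPM belonged to miR-7, miR-124a and miR-30c. MiR-7, which is abundant in neurons and in endocrine cells, had 81127, 33260, 58015 and 29532 RPM. It varied less over the stages than let-7b, miR-26a or miR-124a. MiR-30c had 16184, 3824, 56106 and 33216 RPM. Let-7c had 9240, 12675, 14866 and 27313 RPM. Its order over the stages depended on the scaling, since after TMM scaling it had 10612, 19678, 7866 and 26412 reads per 1000000, lowest in the adult. MiR-145, a miRNA of smooth muscle, had 4123 to 25926 RPM, miR-197 had 646 to 25237 RPM and miR-409b of the DLK1-DIO3 cluster had 3658 to 12874 RPM. Let-7a-5p, miR-486, miR-30f and miR-2284x closed the list of the most abundant, with means of 8339, 8106, 7372 and 7355 RPM. The 10 most abundant names held 93.3%, 94.98%, 87.9% and 91.1% of the reads of the 4 libraries, and 7, 5, 12 and 9 names were enough to reach 90%.

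**Figure D1:**
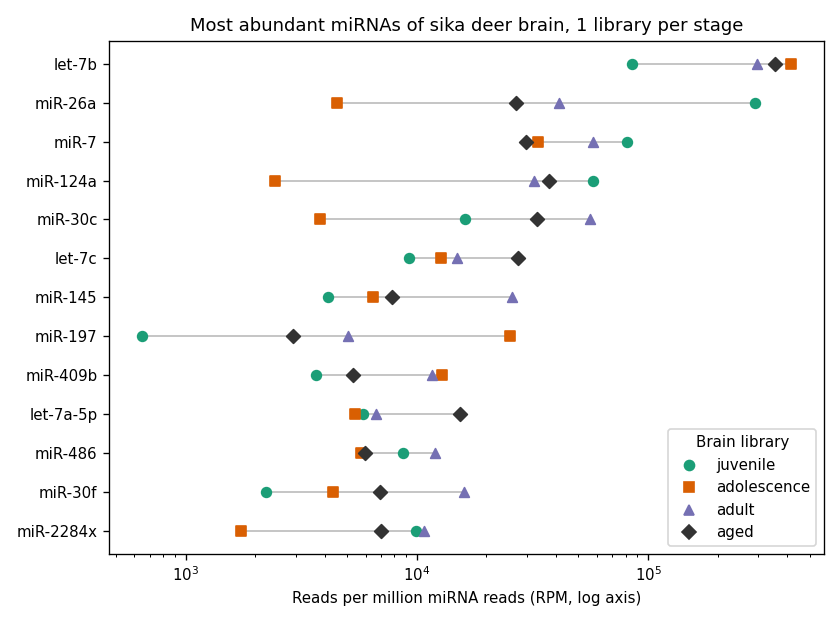
RPM (log axis) of the 13 miRNAs of highest mean RPM in brain, with the second name of 2 near-identical pairs left out; each symbol is the 1 library of a stage and the grey line spans the 4 stages. Let-7b ran from 85558 to 416330 RPM, while miR-26a and miR-124a were lowest in the adolescence library, at 4516 and 2446 RPM.

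Brain was then set against the mean of the other 9 organs. Of 124 miRNAs with enough reads, 24 were higher and 26 were lower in brain, a background of 19.4% and 21% of all tested (limma fit of TMM-scaled log2(RPM + 1) values, organ and stage as terms; adjusted p below 0.01 and a log2 difference beyond 1). Second names of near-identical pairs made up 1 of the 24 higher and 3 of the 26 lower. Among all tested, 67 had an unadjusted p below 0.05, and the median difference was -0.03. Of the 24 higher, 3 (miR-2366, miR-541 and miR-760-3p) reached the minimum of 10 reads in 4 libraries only with brain libraries counted, which favours a call on the higher side, and 21 reached it without brain. The direction was the same at all 4 stages for 22 of the 24 higher and for 25 of the 26 lower miRNAs. The calls rest on the same stage values, so this is a description and no separate support. These p-values rest on the spread between stages, which the design joins with the spread between pools.

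MiR-124a had by far the largest difference, 12.09 ± 0.74 (SE; adjusted p = 5.3e-16, limma), with 9.92 at the adolescence stage and 11.62 to 13.66 at the others. The next was miR-433 of the DLK1-DIO3 cluster, with 785, 12686, 7308 and 4450 RPM in brain. The other organs ran from 0.332 to 6084 RPM, and the highest of these was the aged adrenal library. Its difference was 5.83 ± 0.65 (adjusted p = 1.67e-09, limma). MiR-2366 was rare and nearly restricted to brain, with 11.2, 106, 51.3 and 58.6 RPM against at most 1.91 RPM elsewhere, and it was at 0 in 27 of the 36 other libraries. It had 11 reads outside brain and reached the minimum of reads only through the brain libraries, so its difference of 5.21 is given as a description without a test.

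MiR-760-3p had 19.0, 307, 70.1 and 69.4 RPM in brain and was above every other organ of the same stage each time. The highest value outside brain was 31.8 RPM in the adult adrenal. Because miR-760-3p reached the minimum of reads only with brain libraries counted, its difference of 5.03 is a description without a test. MiR-1296 was likewise above every other organ of the same stage, with 241, 879, 1292 and 1131 RPM against up to 530 RPM in adrenal, and a difference of 3.38 ± 0.51. Together with miR-124a and miR-2366 these were the 4 of the 24 higher miRNAs for which brain had the top RPM at all 4 stages. The scarce miR-128, which was not in this model, also had its top RPM in brain at each stage. These ranks take 0 reads as 0 RPM. For miR-128, 1 read in the adolescence, adult or aged testes would have been above the brain value of that stage. MiR-328 had 34.5, 385, 369 and 310 RPM, of which the juvenile value lay within the range of the other organs (0 to 103 RPM). The differences of miR-328, miR-490, miR-1343-3p, miR-3957, miR-134 and miR-671 were 4.35, 4.10, 4.09, 4.07, 3.34 and 2.91 (adjusted p from 2.85e-10 for miR-490 to 3.56e-05 for miR-671, limma). In the same order their mean RPM in brain was 5.10, 1.03, 2.65, 1.19, 1.77 and 1.07 times that of the next organ. The next organ was heart for miR-490, antler for miR-671 and adrenal for the others. MiR-541 was a low one, at 9.48 to 31.4 RPM in brain. Since it reached the minimum of reads only with brain libraries counted, its difference of 3.41 is a description without a test.

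MiR-135a and miR-135b, which are close relatives known from neurons and kidney, differed from the rest in how the stages behaved. MiR-135b had 3349, 2.71, 366 and 722 RPM in brain, and the 2.71 RPM of the adolescence library was 1 read. MiR-135a had 1039, 13.6, 358 and 904 RPM. Kidney had a higher mean of miR-135a than brain, 1968 against 579 RPM, with up to 5326 RPM. For miR-135b kidney came after brain, with a mean of 610 against 1110 RPM and up to 1654 RPM. Their differences were 4.98 ± 1.05 and 3.56 ± 0.87 (adjusted p = 0.000121 and 0.000675, limma), but at the adolescence stage brain lay below the mean of the other organs, by -1.79 and -0.92. Without the juvenile brain library their adjusted p-values were 0.0147 and 0.0468 (limma), past the limit.

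Adrenal was the organ nearest to brain for many of these miRNAs. It was the next organ for 13 of the 24 higher ones, and only 8 of the 24 were at least 2 times as high in brain as in the next organ. MiR-7 was higher in brain than in the mean of the others by 3.34 ± 0.54 (adjusted p = 2.66e-06, limma), yet the adrenal libraries reached 590536 RPM and 5 other libraries lay above the lowest brain library. MiR-409a and miR-409b were also higher in brain (2.89 and 2.61), while adrenal had a higher mean RPM of both. The profile as a whole gave the same order, as a description over 124 miRNAs that share library scaling. The mean Pearson's r of the log2 values was 0.82 between brain and adrenal libraries, 0.78 with lung and 0.61 with skeletal muscle, and adrenal was the nearest organ to each of the 4 brain libraries. With adrenal left out of the other organs 19 miRNAs were higher and 31 lower.

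**Figure D2:**
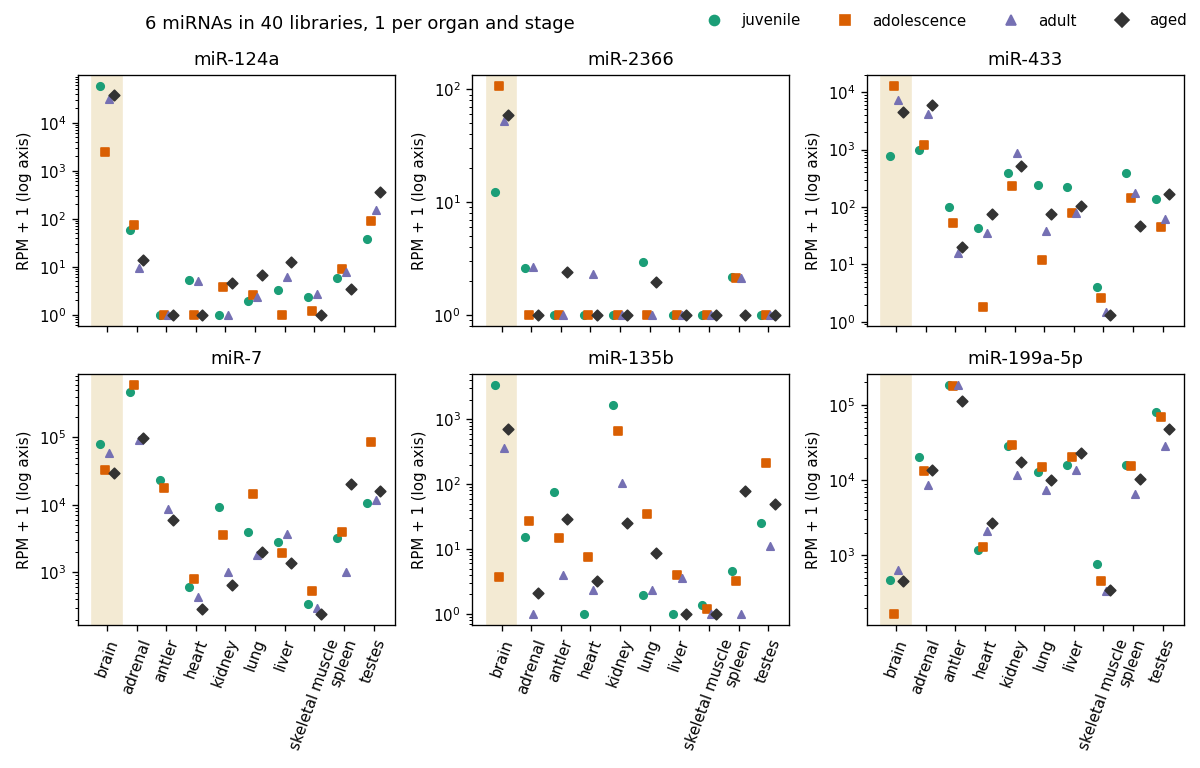
RPM + 1 (log axis) of 6 miRNAs in 40 libraries, 4 per organ with 1 symbol per stage; the shaded column is brain. MiR-124a and miR-2366 were above every other library in all 4 brain libraries, miR-433 and miR-7 were also high in adrenal, miR-135b was at 1 read in the adolescence brain, and miR-199a-5p was at 166 to 631 RPM in brain against a median of 14224 RPM elsewhere.

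The called falls were led by miRNAs of mesenchymal cells. MiR-199a-5p, which fibroblasts make in large amounts, had 467, 166, 631 and 456 RPM in brain against 338 to 182587 RPM elsewhere, with the highest values in antler. Only skeletal muscle libraries came within the brain range. Its difference was -4.94 ± 0.33 (adjusted p = 3.26e-15, limma). MiR-199a-3p, from the other arm of the same hairpin and listed again as miR-3604, had 961, 483, 2022 and 1299 RPM and a difference of -4.74 ± 0.34. MiR-199c differed by -4.33. MiR-3120 and miR-214, which lie with a miR-199a hairpin in the DNM3 gene, differed by -3.98 and -3.95. For miR-214 the adolescence brain was closest to the other organs, at -1.36, and the juvenile brain farthest, at -6.12.

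MiR-378, a miRNA made within the PGC-1beta gene and abundant in oxidative muscle, had 3002, 2109, 3177 and 2001 RPM in brain against a median of 20962 RPM elsewhere, a difference of -3.01 ± 0.29 (adjusted p = 6.04e-11, limma). In RPM it was among the miRNAs that varied least over the brain libraries. MiR-378b, miR-378c and miR-378d were lower too (-3.76, -2.48 and -2.32). MiR-152, listed again as miR-2957, had 9 reads in the 4 brain libraries together, and its difference was -3.14 ± 0.55 (adjusted p = 9.55e-06, limma). MiR-208b, of cardiac myosin genes, passed the limits at -1.24 although it was at 0 in brain and in 28 of the 36 other libraries, and edgeR on the recovered reads did not call it (adjusted p = 0.9998).

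**Figure D3:**
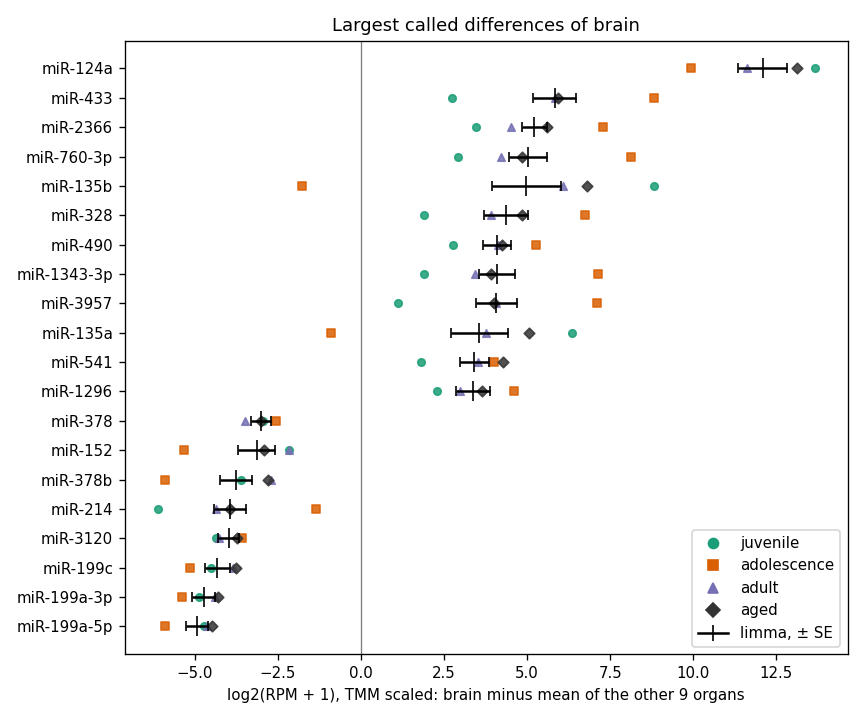
Difference between brain and the mean of the other 9 organs in log2(RPM + 1) after TMM scaling for the 12 largest called rises and 8 of the 10 largest called falls (the second names miR-3604 and miR-2957 are left out); black bars are the limma estimate ± SE over 4 stages and symbols are the single stages. All stages of a miRNA lay on the same side of 0 except the adolescence stage of miR-135a and miR-135b. MiR-2366, miR-541 and miR-760-3p reached the minimum of reads only with brain libraries counted.

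Lists of miRNAs with a known cell type, locus or family gave the following counts, to be read beside the background of 40.3% called among all tested. Of the neuronal list, 11 members had reads, 7 had at least 10 reads in brain and 4 could be tested. Further names of that list, among them miR-9, miR-132, miR-137, miR-138 and miR-218, were not among the 305 names used. The counts therefore cover only a part of the list. All 4 (miR-124a, miR-135b, miR-135a and miR-95) were higher, with a median difference of 4.27 beside -0.03 over all tested. MiR-212, an activity-dependent miRNA, had 4, 0, 13 and 13 reads, 30 of the 33 in all libraries. MiR-383 had 0, 2, 0 and 15 reads, 17 of 20 in all. The list of oligodendrocytes and other glia had no testable member. MiR-338 had 14, 0, 18 and 23 brain reads, 12.1 to 24.9 RPM where it was found, against at most 3.21 RPM elsewhere, and miR-219-3p had 0, 3, 3 and 3 reads. Here too 0 reads elsewhere count as 0 RPM.

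Of the 29 listed members of the DLK1-DIO3 cluster 8 could be tested, and 7 of these were higher in brain and 1 lower. The 7 were miR-433 (5.83), miR-541 (3.41), miR-134 (3.34), miR-409a (2.89), miR-431 (2.85), miR-409b (2.61) and miR-412 (2.34), and miR-134 is known for its part in dendritic spines. MiR-541 reached the minimum of reads only with brain libraries counted, so its place among the 7 is a description without a test. MiR-493 was lower, by -2.58, with 4 brain reads in all. The summed level of the list was 7889, 26572, 25502 and 12146 RPM in brain, and 4 other libraries lay above the highest of these, with 95779 RPM in the aged adrenal at the top. Of the let-7 family 2 of 7 were higher, let-7b and its second name, both at 1.85 ± 0.48 (adjusted p = 0.0013, limma). This call was lost without the adolescence brain library, at 1.23 with an adjusted p of 0.0466 (limma). It was also lost with any stage left out in all organs (adjusted p from 0.0119 to 0.0455, limma). Leaving out skeletal muscle and heart gave 1.29 (adjusted p = 0.0331, limma). The adjusted p was 0.0103 without adrenal and with no minimum of reads, and 0.108 without the juvenile and adolescence brain libraries (limma). The difference stayed above 1 in each of these fits. Let-7a-5p and let-7c gave 1.13 and 1.16 and missed the limit. The abundant miR-26a, miR-30f, miR-2284x and miR-30c gave 0.59, 0.32, 0.25 and -0.33 and did not pass, and the sign of each turned when some libraries or organs were left out. No member of the miR-26, miR-29 or miR-30 families passed.

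Lists of other cell types went in both directions. Of the mesenchymal list 5 of 6 were lower (median -4.53), miR-140 of cartilage being the exception at 0.09. This count and median hold miR-199a-3p again under its second name miR-3604. Of the striated muscle list 4 of 5 were lower, miR-1, miR-133a, miR-133c and miR-208b, and this count was 0 once skeletal muscle and heart were left out of the other organs, with miR-133a at 0.14. Both tested members of the Hox clusters were lower, miR-196b at -2.99 and miR-196a at -2.10, with 13 and 6 brain reads. In the vessel wall list miR-145 was lower (-1.55) and miR-126-3p did not pass. In the blood cell list miR-486 of red cells was higher, by 1.39, while miR-150 (0.84) and miR-142-5p (-2.60) did not pass. MiR-451 had 1 brain read and miR-142-3p none, but both were scarce, with 8 and 43 reads in all libraries. Without adrenal the difference of miR-486 was 0.79 and its call was lost. The choroid plexus list (miR-204, miR-211, miR-449a and miR-449c) and the epithelial list (miR-200b and miR-429) were at 0 in every brain library, but they had reads in only 6 and 13 of the 36 other libraries. In the endocrine list miR-375 was at 0 in brain, while miR-7, its only tested member, was higher (3.34). In the list of liver, gut and kidney none of 2 passed, and in the ruminant families miR-2284 and miR-2285 1 of 7 was lower (miR-2285l). In bulk tissue, fewer cells of a type and less RNA per cell cannot be told apart.

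The course over the stages was next followed in the single libraries. Between the juvenile and the adolescence brain 83 of 105 miRNAs (79%) differed by more than 2-fold in RPM, 31 being higher (29.5%) and 52 lower (49.5%) in adolescence. Between adolescence and adult 69 of 99 differed (69.7%; 55 or 55.6% higher and 14 or 14.1% lower in the adult), between adult and aged 29 of 104 (27.9%; 10 or 9.62% and 19 or 18.3%), and between juvenile and aged 65 of 107 (60.7%; 43 or 40.2% and 22 or 20.6%). These counts have 1 library on each side and no test. The split by direction depended on the scaling. After TMM scaling the splits were 36 higher and 47 lower, 34 and 36, 31 and 1, and 36 and 24. The median difference over 124 miRNAs moved from -0.91 to -0.55, from 1.40 to 0.08, from -0.23 to 0.58 and from 0.26 to 0.07 on the log2 scale. With DESeq2 size factors the medians were -0.41, 0.64, 0.07 and 0.20. The median of adolescence and adult was thus near 0 under TMM alone, and that of adult and aged was below 0 in RPM and above 0 under both other scalings.

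The juvenile and the adolescence library stood apart by share, median difference and r. In 22 of the 105 miRNAs they differed by more than 16-fold. In the other 9 organs 12% to 68.0% of miRNAs (median 24.5%) differed by more than 2-fold over the same pair of stages, which came from the same deer. Of all 60 pairs of stages within an organ, the brain pair ranked first by this share, by the median difference and by the lowest r. Pearson's r over 124 miRNAs was 0.775 for this pair, 0.900 for adolescence and adult, 0.873 for adolescence and aged, 0.936 for juvenile and adult, 0.939 for juvenile and aged, and 0.984 for adult and aged. The adult and aged libraries were close. From the juvenile library 7 libraries of other organs were nearer than the adolescence brain, and from the adolescence library 5 were nearer than the juvenile brain. The juvenile library was 3.15 times as deep as the adolescence library. With both thinned to equal depth the counts stayed within 1.5 times of 31 and 52, and with at least 10 reads asked of both libraries 23 were lower.

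**Figure D4:**
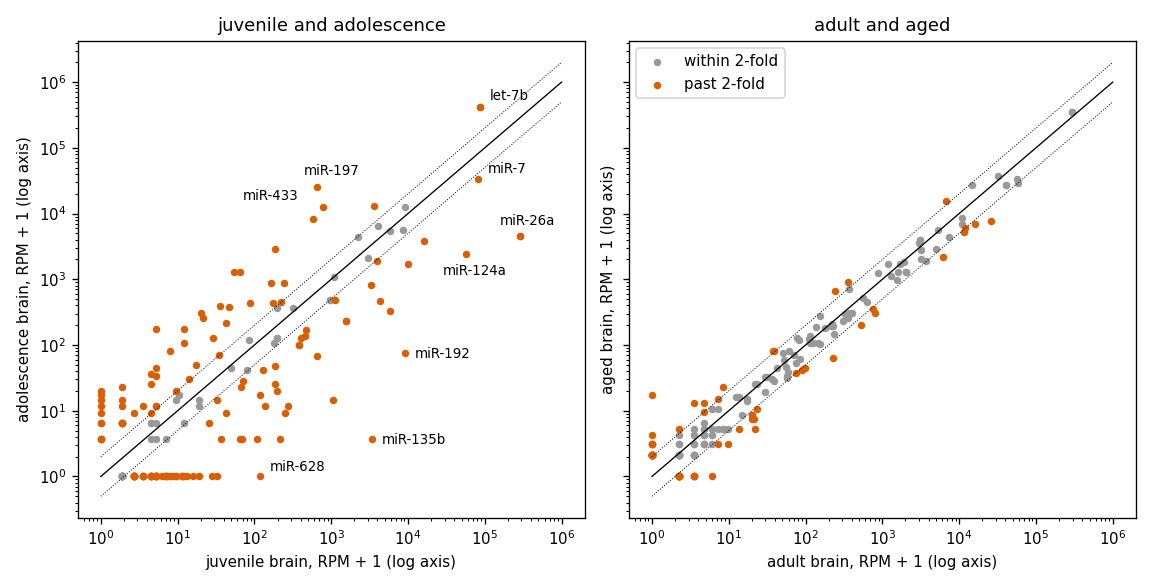
RPM + 1 (both axes log) of every known miRNA with reads in at least 1 of the 2 libraries, for the juvenile and adolescence brain on the left and the adult and aged brain on the right; the solid line marks equal values, the dotted lines 2-fold, and orange points lie past 2-fold. The left panel is spread widely on both sides of the line (r = 0.775 over 124 miRNAs), and the right panel is narrow (r = 0.984).

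The largest ratios belonged to both neuronal and general miRNAs. MiR-135b had 3884 reads in the juvenile and 1 in the adolescence brain, a 1234-fold lower level with a counting interval of 221 to 48745. MiR-192, known from kidney, gut and liver, was 124-fold lower (9093 and 73.3 RPM). MiR-628 had 134 reads and none, at least 14.2-fold lower at the limit of 3 reads. MiR-135a was 76.6-fold, miR-26a 64.0-fold, miR-374a 80.1-fold (interval 14.2 to 3174) and miR-28 39.7-fold lower (interval 6.997 to 1581), the last 2 with 1 adolescence read each. MiR-124a was lower as well, at 57640 and 2446 RPM.

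In the other direction miR-1260b was 40.9-fold and miR-197 39.1-fold higher in the adolescence brain, the first on 5 and 65 reads and the second on 749 and 9298. MiR-2898 was 24.6-fold, miR-574 19.99-fold, miR-760-3p 16.2-fold, miR-433 16.2-fold, miR-2887 15.7-fold and miR-3957 15.5-fold higher. Thus miRNAs that were higher in brain than in the other organs went both ways. MiR-433, miR-760-3p, miR-1343-3p and miR-3957 were at their highest in the adolescence brain, and miR-124a, miR-135a and miR-135b at their lowest.

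With the spread taken from the other organs, which assumes that brain varies like them, 10 of 124 miRNAs passed between juvenile and adolescence brain (8.06%; limma). MiR-197, miR-214, miR-2366 and miR-574 were higher and let-7i, miR-135b, miR-186, miR-192, miR-28 and miR-628 lower in adolescence. MiR-2366 was at 0 in 27 of the 36 other libraries, which gave the spread. It was in the test only through its brain reads, so its call is no more than a description. Log2 differences ran from -9.53 ± 2.20 for miR-135b to 5.72 ± 1.15 for miR-197. Between the other pairs none passed, with 28, 2 and 11 of 124 at an unadjusted p below 0.05, and edgeR on recovered reads gave 3, 0, 0 and 0 over the 4 pairs. For adolescence and adult this 0 rested on the scaling and the filter, with 7 calls in limma when values were scaled to total reads, 3 with a pseudocount of 10 RPM and 19 with no minimum of reads. With no minimum, adult and aged had 3 calls and juvenile and aged 4, and a pseudocount of 10 RPM gave 1 for the latter. MiR-26a did not pass between juvenile and adolescence (-5.57 ± 1.73, adjusted p = 0.0243, limma). All organs of a stage came from the same 3 deer, so p-values for a stage that count the organs as separate are too small where a pool stands out in several of its organs.

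The brain difference between juvenile and adolescence differed from the mean difference in the other organs for 16 miRNAs (12.9%; limma interaction), 8 in each direction. EdgeR on the recovered reads gave 5, of which 3 were higher and 2 lower. MiR-197 differed most upward, by 6.20 ± 1.21, and miR-135b most downward, by -10.60 ± 2.32. MiR-214, which was low in brain, and miR-433, which was high, were both on the upward side, at 4.76 and 6.09. So were miR-760-3p and miR-2366, which reached the minimum of reads only with brain libraries counted. Only miR-28 passed between adolescence and adult (0.806%), at 4.15 ± 0.87, where edgeR called 0, and none passed between adult and aged or between juvenile and aged, where 0 and 3 had an unadjusted p below 0.05 and edgeR also called 0.

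The ratio of miR-26a to let-7b, which no scaling can change, followed the same course. It was 3.38 in the juvenile, 0.0108 in the adolescence, 0.138 in the adult and 0.0762 in the aged brain, a 312-fold range. The adolescence brain was the lowest and the juvenile brain the eighth highest of all 40 libraries. The range within the other organs was 1.56-fold in skeletal muscle to 114-fold in spleen. From juvenile to adolescence the ratio rose in lung (0.153 to 4.12), heart (0.868 to 3.59), adrenal (0.990 to 1.30), antler (0.104 to 0.237) and spleen (0.0775 to 0.136). As in brain, it fell in kidney (1.45 to 0.789), testes (0.935 to 0.452), liver (0.0856 to 0.0587) and skeletal muscle (7.36 to 4.76). As a description over 124 miRNAs, the deviation of the juvenile brain from the brain mean was most like the deviation of the aged spleen (r = 0.78), the adolescence adrenal (0.73) and the adolescence lung (0.72) from their own organ means, and that of the adolescence brain was most opposed to the adolescence kidney (-0.63) and lung (-0.61). The part of library preparation in these differences was not tested.

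**Figure D5:**
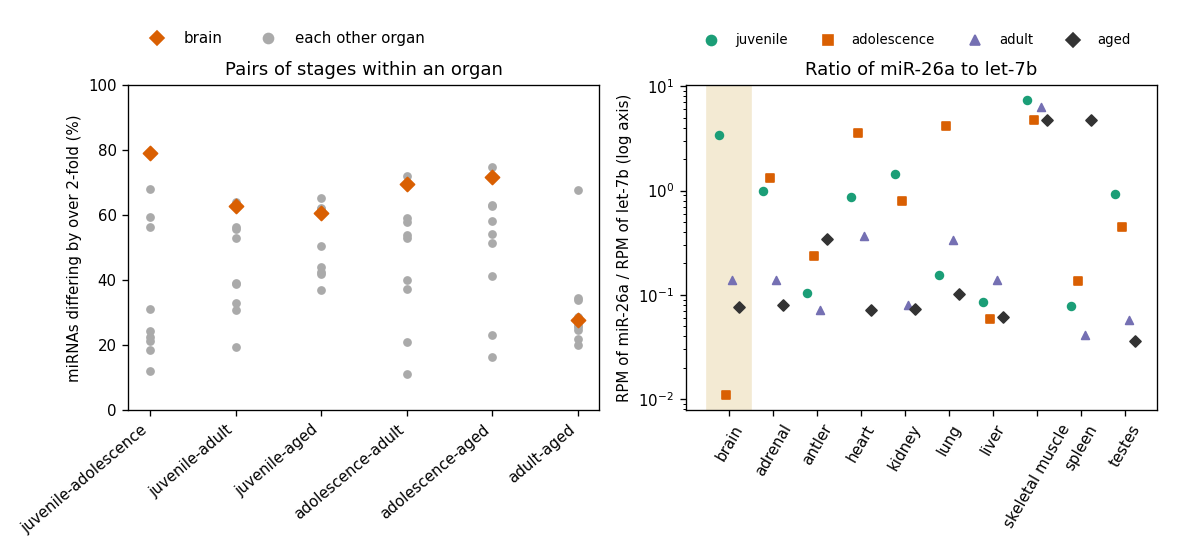
Left, percent of miRNAs that differed by over 2-fold in RPM between 2 stages of an organ, with brain as orange diamonds and the other organs as grey points; right, RPM of miR-26a divided by RPM of let-7b (log axis) in 40 libraries. Brain was highest of all organs between juvenile and adolescence (79%), and its ratio ran from 3.38 in the juvenile to 0.0108 in the adolescence library.

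Between adult and aged brain the changes were small by comparison. MiR-342, miR-145, miR-409a and miR-664b were 3.58-, 3.31-, 2.89- and 2.66-fold lower in the aged library in RPM. After TMM scaling they were still lower, by -0.96, -0.86, -0.66 and -0.54 on the log2 scale, so each was within 2-fold. Let-7d, miR-135a, let-7a-5p and miR-216b were 2.72-, 2.53-, 2.31- and 2.21-fold higher in RPM, and 2.31, 2.20, 2.08 and 1.96 on the log2 scale after TMM. From juvenile to aged, miR-26a was 10.8-fold, miR-2285f 9.94-fold and miR-192 5.40-fold lower, and miR-339b, miR-328, miR-133a and miR-339a were 9.40-, 8.99-, 8.85- and 8.01-fold higher. From adolescence to adult, miR-135b, miR-28 and miR-135a were 135-fold (interval 23.98 to 5337), 45.7-fold (8.01 to 1821) and 26.4-fold (11.2 to 81.9) higher, and miR-628 went from 0 to 61 reads, at least 9.38-fold. MiR-1260b, miR-2898, miR-197 and miR-423-5p were 14.1-, 6.05-, 5.001- and 4.95-fold lower. TMM scaling made these rises smaller and these falls larger. The log2 differences were then 5.22, 3.67, 3.11 and 5.37 for the 4 higher and -5.17, -4.14, -3.87 and -3.83 for the 4 lower miRNAs, on log2(RPM + 1) values, and none passed the test (limma).

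Few brain miRNAs kept a level over all stages. Of 81 names with at least 50 reads in a brain library, 3 stayed within 2-fold over the 4 libraries in RPM (miR-140, miR-151-3p and miR-378, named after their values were seen) and 35 spanned more than 10-fold, with a median of 7.62-fold from the lowest to the highest stage. After TMM scaling 6 names stayed within 2-fold and none of these 3 was among them, with spans of 2.17-, 3.52- and 2.05-fold. The adolescence library was the lowest of the 4 for 46 and the highest for 20 of the 81 in RPM, the juvenile library the lowest for 29 and the highest for 21, and the adult library the highest for 24 and the lowest for none. After TMM scaling the adolescence library was the lowest for 38 and the highest for 27, the juvenile library 25 and 31, and the adult library was the highest for 4 and the lowest for 14. Under both scalings the adolescence and juvenile libraries together held most of the extreme low values.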

How the data were processed

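Small RNA of 10 organs at 4 stages (40 libraries, each a pool of 3 deer) was compared, with 4 brain libraries against 36 others. The authors removed adapters and other classes of RNA, assigned reads to miRBase miRNAs of cattle or to ones that miRDeep predicted, and deposited RPM (headed tpm), the reads of a miRNA per 1000000 miRNA reads, for miRNAs with reads only. The submitters' processing notes name CASAVA, bcl2fastq 1.8.4 and Bowtie without versions for the others. The labels name a NEBNext and the paper's methods a TruSeq small RNA kit. The deposited RPM were whole multiples of 1 read for all 7982 listed values (tolerance 0.02 reads), and these recovered reads give the depths in the text. The authors' multiple naming of the same reads, and the low counts of a shallow library, can both change shares and ratios.

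Of 337 known names, 32 listed in antler alone were left out, and miR-148c of antler was joined to miR-2957, leaving 305. Predicted miRNAs were left out of the comparisons. limma 3.58.1 (trend) in R 4.3.3 was fitted to log2(RPM + 1), scaled by TMM factors of edgeR 4.0.16, with organ and stage terms. The 124 miRNAs tested reached 10 reads in 4 or more libraries. P-values were adjusted by Benjamini-Hochberg over all tested, and a call needed an adjusted p below 0.01 and a log2 difference beyond 1. Stage contrasts of brain added brain by stage terms to this model. Stage pairs by size used RPM + 1, at least 10 reads in 1 of the libraries and a limit of 2-fold. Ratios have exact 95% counting intervals, and 3 reads stand for 0. MiR-128 was tested by exact permutation. The model was tested on simulated data. Alternatives were edgeR and DESeq2 1.42.0 on the recovered reads, other scalings, pseudocounts and minimums, names counted once, and libraries, stages and organs left out; leaving out the juvenile and adolescence brain libraries together was chosen after seeing the data. Figures used Python 3.11.15 and matplotlib 3.10.9.

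The stage number pairs the libraries, since the organs of a stage came from the same deer in the study's methods. Deviations from the organ means correlated with a median r of 0.05 between brain and other organs of the same stage (-0.63 to 0.69) and of -0.02 between other stages. The text names the 15 miRNAs of highest mean RPM in brain, the 12 largest called rises and 10 largest called falls, the largest ratios of each stage pair among miRNAs with at least 50 reads in 1 library (8 each way for juvenile and adolescence, 4 for the others), members of the neuronal and glial lists with at least 10 brain reads, the 2 markers, and further called miRNAs or list members. The members and lists were chosen with earlier results of these data known. No miRNA sequence was printed, since none was analysed here.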

Additional observations from a re-analysis of the deposited data

Results flagged for a closer look

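Among 59 named miRNAs, 3 had a brain library farther from the other 3 than the 95% limit for 4 values allows (Dixon's ratio on the log2(RPM + 1) scale). Many of the 59 were named for large ratios between brain stages, and some are second names. The count of 3 can therefore not be set against a chance rate. MiR-328 was lowest in the juvenile brain, at 34.5 RPM. MiR-628 was lowest in the adolescence brain, at 0 RPM, and miR-28 also, at 2.71 RPM.

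The difference between juvenile and adolescence in brain departed from that in the other organs (limma interaction, adjusted p below 0.01, log2 scale) in 16 miRNAs, against 5 by edgeR. It was lower in brain by -10.60 for miR-135b, -7.92 for miR-628, -7.00 for miR-374a, -6.70 for miR-192, -5.19 for miR-28, -4.68 for miR-186, -4.28 for let-7i and -4.05 for miR-17-5p. It was higher by 6.20 for miR-197, 6.09 for miR-433, 5.99 for miR-3957, 5.71 for miR-574, 5.24 for miR-1343-3p, 5.197 for miR-760-3p, 4.76 for miR-214 and 3.83 for miR-2366. Of these, miR-760-3p and miR-2366 reached the minimum of reads only with brain libraries counted. MiR-28 also departed between adolescence and adult, by 4.15, where edgeR called 0.

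Predicted miRNAs, which entered no comparison, had 2798 reads in the 4 brain libraries, from 48 to 56 names and 0.0562% to 0.119% of the reads per library.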

How the results depend on the processing

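For brain against the other organs the 24 higher and 26 lower miRNAs became 42 and 25 with no minimum of reads, and 15 to 25 were higher and 21 to 30 lower over the fits that left out a brain library or a stage. Of the 51 miRNAs that passed a test of brain against the other organs, miR-128 among them, 28 kept their call under every alternative run for them. Over 58 miRNAs and 1074 comparisons with an alternative, 955 kept direction and side of the limit, 94 lost the call, 9 gained one and 16 turned in sign. The turned ones were miR-26a and miR-26c (-0.73 to 1.58 for both over libraries or stages left out), miR-30c (-1.04 to 0.27, and 0.046 without the juvenile and adolescence brain), miR-30f (-0.20 to 0.46, and -0.22 without skeletal muscle and heart), miR-2284x (-0.35 to 0.59, -0.058 without both brain libraries, -0.21 without skeletal muscle and heart and -0.0073 without adrenal) and miR-133a (0.14 without skeletal muscle and heart). Without the stage term, that is with no replicate block, 24 were higher and 25 lower, and miR-133a (-1.60, adjusted p = 0.0178, limma) lost its call.

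Counting near-identical names once took the mean share of let-7b from 28.8% to 47.1%. Between stages, TMM scaling gave 34 higher and 36 lower for adolescence and adult and 31 and 1 for adult and aged. At least 10 reads in both libraries gave 23 lower for juvenile and adolescence, 31 higher for adolescence and adult, 5 higher and 12 lower for adult and aged, and 13 lower for juvenile and aged, and at least 50 reads in 1 library gave 5, 12 and 13 for the last 3 counts. In the models, the 10 calls of juvenile and adolescence became 3 with edgeR, 20 with a pseudocount of 10 RPM and 23 with no minimum, and the 16 of the interaction 5, 25 and 26, with 13 to 29 over organs left out. For adolescence and adult the 0 calls became 7 with total reads, 3 with 10 RPM and 19 with no minimum (0 to 4 over organs), and the 1 call of the interaction 0 with edgeR, 10, 2 and 20 (0 to 5 over organs). For adult and aged, no minimum gave 3 calls in the contrast and 3 in the interaction, and for juvenile and aged 10 RPM gave 1 and 1 and no minimum 4 and 4. The cause was not tested. The r of the juvenile and adolescence brain was 0.753 to 0.821. Depth limits what is said of scarce miRNAs in the adolescence brain, where 1 read is 2.71 RPM. DESeq2 was run for the organ comparison alone.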
